A study of Mus musculus with 12 samples.

Results

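Acetylation of histone H3 by the mark H3K27ac was compared between mouse embryonic stem cells (mESCs) and NIH3T3 fibroblasts from 2 ChIP-seq peak lists, made from 2 of the 12 samples of the series. The members were all peaks on the 21 assembled chromosomes. These were 19305 of the 19417 peaks in mESCs and 34215 of the 34241 peaks in NIH3T3 cells, together 53520 of the 128567 peaks in all peak lists of the series. A peak was shared when it overlapped a peak of the other line by at least 1 bp, and otherwise it was mESC-only or NIH3T3-only. The mESCs were of the E14 line (E14TG2a), pluripotent cells of the early embryo that carry a loss of the purine salvage gene Hprt, and NIH3T3 is an established line labelled as embryonic fibroblasts. Both were grown in GMEM with fetal bovine serum and LIF, the cytokine that holds mESCs undifferentiated, so NIH3T3 cells received LIF too, and neither line was otherwise treated. Sonicated chromatin of both was precipitated with the same anti-H3K27ac antibody, as 1 library per line. The study asked where Ctr9, a subunit of the Paf1 complex that travels with RNA polymerase II (RNAPII), sits at genes and enhancers. The Ctr9 and NELFA peaks set beside H3K27ac below came from cells with a GFP tag on those proteins. For Ctr9 these cells were sorted pools and no clones. Per the paper, the peaks of phosphorylated RNAPII used below came from the NELFA-tagged mESCs too.

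H3K27ac is written by the acetyltransferases p300 and CBP, removed by histone deacetylases and bound by bromodomain proteins. It lies on the nucleosomes beside active promoters and active enhancers, and tends to be low on the nucleosome-free stretch where transcription factors sit. Promoters of widely used genes carry it in most cell types, while enhancers carry it in few, so that a pair of unlike cell types shares promoters more than enhancers.

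Each line had 1 library, so replicates could not be tested, and every difference described here is a difference between these 2 libraries. The lists hold no read counts, so their depth is unknown. Shares carry 95% exact Clopper-Pearson intervals and differences of shares 95% Newcombe intervals, which cover counting error only. The fold of a peak is the authors' enrichment at its summit over the local background, each against the input of its own line, so folds of the 2 lines were not put on a common scale. RNA-seq of the same lines, also 1 library each, gave the level of each gene's highest transcript in TPM, kallisto's length-adjusted unit, and differences in mRNA are given as log2(TPM + 1) in mESCs minus that in NIH3T3 cells.

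The labels were checked against marker genes. All 20 pluripotency factors listed had more mRNA in mESCs, with a summed level of 8120 TPM against 55.2 TPM in NIH3T3 cells, where 11 of them were listed at 0. Pou5f1, the factor Oct4 that defines pluripotency, stood at 1402 TPM in mESCs and was listed at 0 in NIH3T3 cells. All 20 fibroblast matrix genes were higher in NIH3T3 cells, with a sum of 6101 TPM against 315.8 TPM in mESCs. Markers of endoderm, mesoderm and trophectoderm summed to 10.7 TPM in mESCs and 4.63 TPM in NIH3T3 cells over 10 genes, with Cdx2 listed at 0 in both. Neural and blood markers summed to 40.9 and 7.95 TPM over 10 genes, most of it from the tubulin gene Tubb3 (31.4 and 7.75 TPM), with Hbb-bt listed at 0 in both. Hprt had 0.0522 TPM and no H3K27ac peak in mESCs, against 131.2 TPM and 2 peaks of up to 15.5-fold in NIH3T3 cells, which is what the E14TG2a line is known for.

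The sequences under the highest-ranked peaks away from gene starts show the kinds of DNA that the lists hold. Each is the 201 bases around a summit on the plus strand of GRCm38 (mm10), taken in the order of the authors' q-value, with CpG dinucleotides in capitals. The 2 leading mESC-only peaks lay near Trappc6b (window chr12:59040111-59040311) and Rps6ka1 (chr4:133900284-133900484). The NIH3T3-only windows lay in an intron of the noncoding transcript Lncppara upstream of Ppara (chr15:85669128-85669328) and in an exon of the noncoding antisense transcript Dnm3os, with 4930558K02Rik as the nearest protein-coding start (chr1:162217858-162218058). The window of the leading shared pair lay near Rdm1 (chr11:101641506-101641706).
Trappc6b, mESC-only: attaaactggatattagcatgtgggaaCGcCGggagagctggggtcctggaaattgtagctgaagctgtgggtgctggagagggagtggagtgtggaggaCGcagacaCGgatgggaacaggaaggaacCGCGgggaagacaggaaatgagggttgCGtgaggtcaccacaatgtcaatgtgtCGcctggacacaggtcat
Rps6ka1, mESC-only: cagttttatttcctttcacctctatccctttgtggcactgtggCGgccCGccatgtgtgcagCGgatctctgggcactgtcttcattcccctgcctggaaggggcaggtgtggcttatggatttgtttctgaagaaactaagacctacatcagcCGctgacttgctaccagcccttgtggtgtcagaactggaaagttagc
Ppara, NIH3T3-only: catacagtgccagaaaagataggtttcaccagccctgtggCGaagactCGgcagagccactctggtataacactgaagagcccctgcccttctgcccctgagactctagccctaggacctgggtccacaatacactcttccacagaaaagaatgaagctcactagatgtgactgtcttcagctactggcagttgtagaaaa
4930558K02Rik, NIH3T3-only: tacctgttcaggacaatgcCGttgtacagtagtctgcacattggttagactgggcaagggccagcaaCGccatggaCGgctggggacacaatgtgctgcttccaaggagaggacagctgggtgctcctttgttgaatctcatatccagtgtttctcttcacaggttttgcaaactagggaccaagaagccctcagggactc
Rdm1, shared: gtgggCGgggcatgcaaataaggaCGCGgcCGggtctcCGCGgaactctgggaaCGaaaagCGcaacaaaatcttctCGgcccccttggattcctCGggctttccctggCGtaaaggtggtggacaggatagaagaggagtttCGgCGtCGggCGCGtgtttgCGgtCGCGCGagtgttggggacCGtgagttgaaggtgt

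The shared window held 21 CpGs, the mESC-only windows 8 and 4, and the NIH3T3-only windows 2 and 3. The Rdm1 summit lay 0.142 kb from Gm24950, a small nuclear RNA (snRNA) gene, and the Trappc6b summit lay 0.124 kb from another, Gm22973. Small nuclear RNAs are spliceosome components with promoters of their own. Of the 10 ranked windows, 1 overlapped an annotated UTR and was passed over.

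Most H3K27ac peaks at gene starts were common to both lines, and most peaks elsewhere belonged to 1 line. In mESCs 9144 of the 19305 peaks were shared (47.4%, interval 46.7 to 48.1%), and 10161 were mESC-only. In NIH3T3 cells 8482 of the 34215 peaks were shared (24.8%, interval 24.3 to 25.3%), and 25733 were NIH3T3-only. A gene start here is the annotated 5′ end of a protein-coding gene in GENCODE M21, and a peak was at it when its summit lay within 1 kb. At gene starts 92.5% of the mESC peaks were shared (interval 91.9 to 93.1%) and 54.1% of the NIH3T3 peaks (interval 53.2 to 55.0%). Away from gene starts these shares were 17.0% (16.3 to 17.7%) and 8.12% (7.76 to 8.49%). These are shares of peaks, and several peaks can lie at 1 gene start. Of 21938 gene starts, 6723 had peaks of both lines within 1 kb, 3092 of NIH3T3 cells only and 368 of mESCs only. With peaks within 1 kb of each other also counted as shared, 50.0% of all mESC and 33.6% of all NIH3T3 peaks were. With the NIH3T3 list cut to its 19305 strongest peaks by q-value, so that the lists were equal in number, 43.6% of mESC and 39.6% of NIH3T3 peaks were shared. The gap between the lines was thus smaller at equal numbers, while the contrast between gene starts and other places was present there too. At equal numbers, 87.3% of mESC and 64.1% of NIH3T3 peaks at gene starts were shared, against 14.2% and 14.8% away from them.

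Shared peaks were wider and more enriched than line-only peaks, above all in NIH3T3 cells. The NIH3T3 list as a whole covered 22.9 Mb and the mESC list 9.47 Mb, with median widths of 484 bp (quartiles 292 and 847) and 412 bp (289 and 616). Peaks wider than 1 kb made up 19% of the NIH3T3 list and 5.66% of the mESC list, and the widest had 14222 and 3052 bp. In NIH3T3 cells, shared peaks had a median width of 892 bp and a median fold of 14.8, and NIH3T3-only peaks 400 bp and 5.73. In mESCs, shared peaks had 467 bp and 4.73, and mESC-only peaks 371 bp and 3.61.

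The share of peaks found in the other line rose with fold in both lists. In the 5 groups of equal size from the lowest to the highest fold, 32.0, 34.0, 41.9, 50.1 and 78.8% of mESC peaks were shared. For NIH3T3 peaks these shares were 4.57, 6.68, 13.0, 31.0 and 68.7%. Peaks at gene starts were also more frequent among strong peaks, from 23.8 to 69.5% in mESCs and from 15.4 to 71.2% in NIH3T3 cells, so the rise was looked at within each position. At gene starts it ran from 83.6 to 98.6% in mESCs and from 18.7 to 88.2% in NIH3T3 cells, with each group above the last. Away from gene starts, the first 4 groups of mESC peaks stayed between 13.3 and 16.8% and the strongest group reached 26.3%. In NIH3T3 cells the first 4 groups lay between 2.43 and 6.58% and the strongest at 24.9%. Even among the strongest peaks away from gene starts, most had thus no counterpart in the other line in the full lists. Without peaks whose summit window was mostly repeat (described below), the strongest mESC group reached 47.7% (45.1 to 50.2%) and the NIH3T3 group 25.9%. At equal numbers of peaks the strongest groups were at 24.5% in mESCs and 39.0% in NIH3T3 cells.

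**Figure D1:**
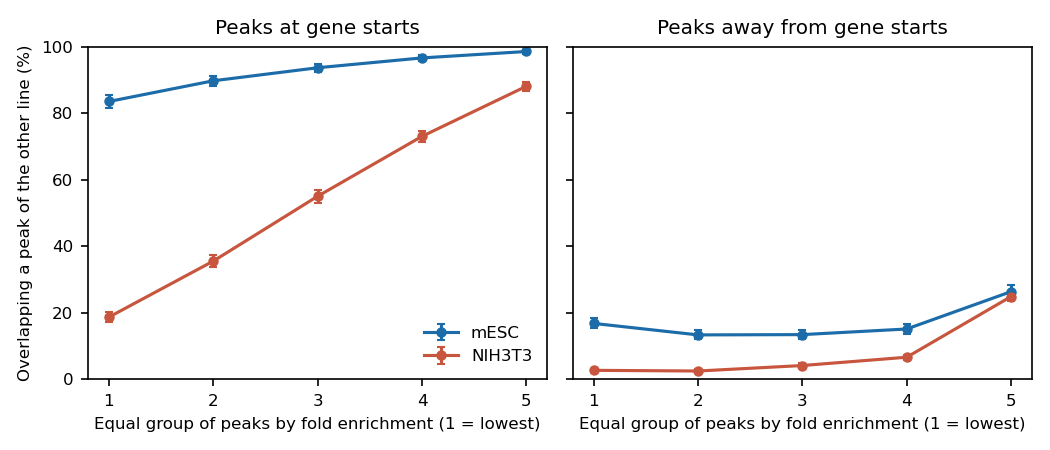
Share of H3K27ac peaks that overlapped a peak of the other line (y axis, percent) in 5 groups of equal size by fold enrichment (x axis, from the lowest fold, group 1, to the highest, group 5), for mESC and NIH3T3 peaks at and away from gene starts, with 95% exact intervals as error bars. Among mESC peaks at gene starts the share lay between 83.6 and 98.6%. Away from gene starts no group of either line passed 26.3% in these full lists, which include repeat peaks.

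Where both lines had a peak, the peaks coincided closely and the NIH3T3 peak was the larger. Of the shared mESC peaks, 97.5% overlapped exactly 1 NIH3T3 peak, and 69.0% lay wholly inside it. The summits of the 9144 pairs were a median of 48 bases apart (quartiles 19 and 155), and 68.0% were within 100 bases. The NIH3T3 peak was the wider in 87.2% of the pairs and had the higher fold in 96.9%, with a median ratio of the folds of 3.04 (quartiles 2.06 and 4.42). Across pairs, log2 fold in the lines went together loosely, with a Pearson coefficient of 0.39 and a Spearman coefficient of 0.38 for fold. Pairs are not independent replicates, and each comes from the same 2 libraries. Pairs at gene starts had summits 44 bases apart in the median and those elsewhere 72 bases, with fold ratios of 3.07 and 2.93.

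The 5 shared pairs with the highest q-value rank, all away from protein-coding gene starts, included 2 beside snRNA genes and 1 in a noncoding RNA. Near Rdm1, a gene of DNA repair, the fold was 17.4 in mESCs and 39.3 in NIH3T3 cells. Near Arl4d, which encodes a small GTPase, it was 20.3 and 41.7, with the spliceosomal snRNA gene Rnu2-10 0.124 kb from the mESC summit. The pair assigned to Mreg lay in an exon of the noncoding RNA D230017M19Rik, with folds of 15.6 and 42.2. That assigned to Cyp24a1, which encodes a vitamin D hydroxylase, lay in an exon of Pfdn4, a prefoldin subunit gene, and of its antisense transcript Gm16796, at folds of 19.4 and 50.2. The Nfyc pair, in the gene of an NF-Y subunit, had folds of 14.7 and 45.2.

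Position relative to gene starts separated the classes. Of the shared peaks, 78.6% in mESCs and 79.1% in NIH3T3 cells had a summit within 1 kb of a gene start, against 5.73% of mESC-only and 22.1% of NIH3T3-only peaks. These windows make up 1.52% of the genome. The difference between shared and line-only peaks was 72.8 percentage points in mESCs (71.9 to 73.8) and 57 in NIH3T3 cells (56.0 to 58.0). NIH3T3-only peaks lay at gene starts more often than mESC-only peaks by 16.4 points (15.7 to 17.1), and at equal numbers of peaks by 21 points (20.0 to 22.0). The median distance to the nearest gene start was 0.291 kb for shared mESC peaks, 36.6 kb for mESC-only peaks (quartiles 12.3 and 119.0) and 16.2 kb for NIH3T3-only peaks (1.42 and 58.2). More than 50 kb from any gene start lay 42.7% of mESC-only and 28.1% of NIH3T3-only peaks, against 60.0% of the genome.

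**Figure D2:**
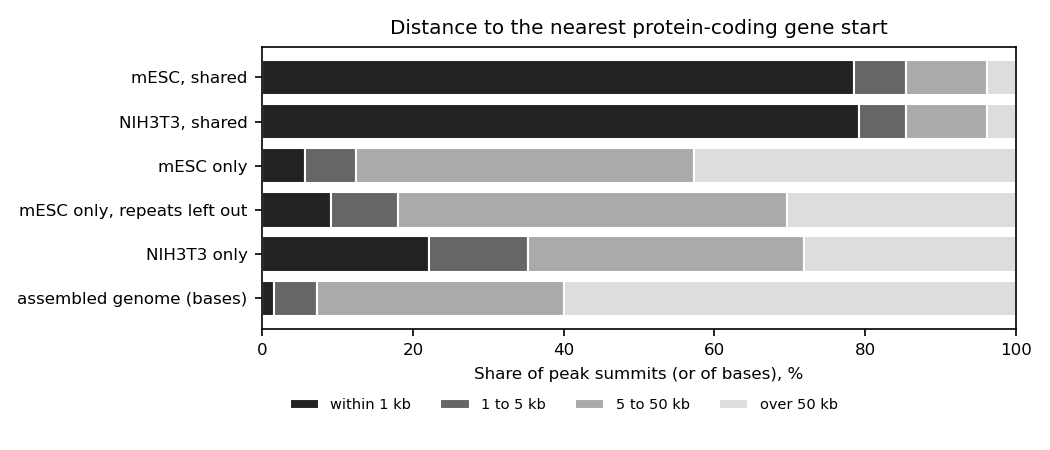
Share of H3K27ac peaks (x axis, percent) by distance from the summit to the nearest protein-coding gene start (4 ranges of kb, as shades of stacked bars). The bars (y axis) are shared, mESC-only and NIH3T3-only peaks, mESC-only peaks without repeat peaks, and the bases of the genome. Shared peaks gathered within 1 kb (78.6 and 79.1%), and mESC-only peaks lay mostly beyond 5 kb.

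At gene starts, the summits sat to the side that is transcribed. Of shared peaks there, 74.5% in mESCs (73.5 to 75.5%) and 76.4% in NIH3T3 cells (75.3 to 77.4%) had the summit downstream of the start, with medians of 177 and 184 bases downstream. For line-only peaks at gene starts the shares were 60.3% in mESCs (56.2 to 64.3%) and 59.0% in NIH3T3 cells (57.7 to 60.3%). The first nucleosomes inside an active gene are the usual place of the mark.

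Many shared peaks counted as away from gene starts lay at starts of another kind. Of the 1959 such mESC peaks, 43.7% lay within 1 kb of another annotated start of a protein-coding gene and a further 13.9% at a noncoding transcript's start, which left 42.4% at neither (40.2 to 44.6%). Of the 9579 mESC-only peaks away from gene starts, 91.1% lay at neither (90.5 to 91.7%), and of the 20041 NIH3T3-only peaks 84.4% (83.8 to 84.9%). Starts of small RNA genes were within 1 kb of 3.32% of shared mESC peaks away from gene starts (2.57 to 4.21%), of 0.251% of mESC-only peaks and of 0.344% of NIH3T3-only peaks.

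Base composition followed the same order. CpG-rich DNA marks the promoters of most widely used genes. In the 301 bases around the summit, shared mESC peaks at gene starts had a median GC content of 65.4% and 26 CpGs, and those away from gene starts 56.8% and 13 CpGs. The mESC-only peaks away from gene starts had 50.2% and 5, and NIH3T3-only peaks there 48.5% and 4, against 41.5% and 2 in windows spread over the genome. The mESC-only peaks away from gene starts reached 60.5% GC at their upper quartile and 15 CpGs, against 52.8% and 6 for the NIH3T3-only peaks.

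The CpG-rich part of the mESC-only list lay largely in repeats. Of the mESC-only peaks away from gene starts, 3928 (41.0%, 40.0 to 42.0%) had a summit window that the reference marks as repeat over at least 50% of its bases, against 5.87% (5.55 to 6.21%) of the NIH3T3-only and 2.40% (1.77 to 3.18%) of the shared mESC peaks there. The genome stood at 29.2%. Without them, the upper quartile of mESC-only peaks away from gene starts was 52.5% GC and 6 CpGs. In mESC-only peaks the repeat windows had the higher fold, a median of 4.17 against 3.35 for the others. Repeats over at least 90% of the window were found for 13.8% of all mESC H3K27ac peaks and for 0.351% of NIH3T3 H3K27ac peaks. The lists of the other proteins lay between these, with 1.73% for Ctr9 in mESCs, 1.11% for Ctr9 in NIH3T3 cells, 0.505% for NELFA and 2.07% for RNAPII phosphorylated on serine 5 (Ser5p). Genome windows stood at 14.7% by this measure, so the mESC H3K27ac list was near the genome and the other 5 lists lay below it.

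**Figure D3:**
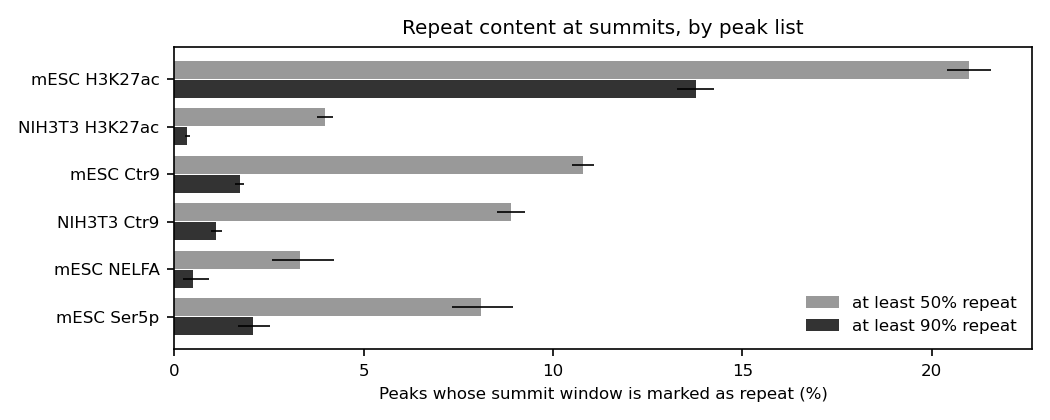
Share of peaks (x axis, percent) whose 301 bases around the summit are marked as repeat in the reference, at cutoffs of at least 50 and at least 90% of the bases, for 6 peak lists (y axis). Windows spread over the genome, not drawn, stood at 29.2 and 14.7%. The mESC H3K27ac list reached 21 and 13.8%, and no other list passed 10.8 and 2.07%.

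A few sequences recurred in these repeat peaks. The 2 leading 30-base words, with CpGs in capitals, are shown because they account for a large part of the mESC-only list. Word 1 was the most frequent in mESC-only windows. Word 2 was the most frequent once peaks matching sequences around word 1 were set aside.
Word 1: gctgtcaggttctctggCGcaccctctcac
Word 2: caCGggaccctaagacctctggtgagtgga

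Word 1 was found in the windows of 1426 mESC peaks, all of them mESC-only (14.0% of that class), and in 0 NIH3T3 peaks. GRCm38 held 5437 exact copies of it, on either strand, in 1937 loci, and 92.4% of neighbouring copies within 2 kb followed each other at 212 bases. Of the 1937 loci, 1452 (75%) overlapped an mESC H3K27ac peak and 0 a NIH3T3 H3K27ac peak, while 1 overlapped an mESC Ctr9 peak and 7 an mESC Ser5p peak. The peaks with word 1 had a median fold of 5.19 (quartiles 4.51 and 5.98), above the mESC-only median of 3.61. Word 2 was found in 540 mESC-only peaks and in 0 NIH3T3 peaks. Its 5017 copies lay in 1810 loci, and 87.7% of neighbouring copies within 2 kb followed each other at 208 bases. Of these 1810 loci, 498 (27.5%) had an mESC peak and 0 a NIH3T3 peak. Together with 3 rarer words found in the same stepwise way, the matching sequences were present at 2517 mESC-only peaks, 24.8% of that class. A peak matched when its window held any 30-base word that recurred within 150 bases of at least 10 copies. By the same matching, 32 NIH3T3 peaks, 29 of them NIH3T3-only, matched sequences around word 1, and 1 matched those around the fifth word. Of these 32 peaks, 4 had a summit window of at least 50% repeat, against 1605 of the 1611 mESC peaks that matched around word 1. Whether the 32 carry the same repeat was not tested.

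Tandem units of about this length are known from the promoters of young mouse LINE-1 elements, but no repeat annotation was used here and the family of these sequences was not determined. Reads from near-identical copies cannot be placed to a single copy, and no filter on such reads is stated, so the count of marked copies is uncertain. Its part in the difference between the lines was not tested. Without peaks in repeat windows, 59.1% of the 15254 remaining mESC peaks were shared (58.4 to 59.9%) and 25.5% of the 32854 NIH3T3 peaks.

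Short words of transcription factors were counted around summits of line-only peaks away from gene starts, on both strands. A match shows the letters only. AP-1, the dimer of Fos and Jun proteins that acts in fibroblasts, binds TGANTCA. Within 500 bases of the summit, TGANTCA was present at 57.1% of NIH3T3-only peaks (56.4 to 57.8%) and at 25.6% of mESC-only peaks (24.8 to 26.5%), a difference of 31.4 points (30.3 to 32.6). Shared peaks away from gene starts stood at 29.0% in NIH3T3 cells and 27.9% in mESCs, and genome windows of that length at 26.6%. The NIH3T3-only share was thus more than the genome's, and the other 3 were near it. Without peaks whose 301-base summit window was at least 50% repeat, called without repeats below, the shares were 57 and 31.3%. Repeat bases elsewhere in the searched sequence were kept. At equal numbers of peaks the shares were 59.6 and 26.3%. The share differed little with peak strength, from 52.6% in the weakest to 58.4% in the strongest of 5 groups by fold without repeats.

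Within 500 bases of the summit and without repeat peaks, words of pluripotency factors were more frequent at mESC-only than at NIH3T3-only peaks. AAGGTCA, the word of the orphan nuclear receptor ESRRB, was at 27.6% of mESC-only peaks (26.5 to 28.8%) and 16.8% of NIH3T3-only peaks, against 17.6% of genome windows. The octamer ATGCAAA, bound by Oct4 and other POU factors, was at 22.0 and 16.1%, and the SOX word AACAATG at 17.2 and 13.9%. Both of the last lay below the genome's 23.7 and 18.5%. The KLF word GGGTGTG was at 28.3 and 24.3% (genome 14.9%) and the NF-Y word CCAATCA at 14.3 and 9.79% (genome 12.1%). With repeats kept, ESRRB stood at 21 and 16.7%, the octamer at 18.2 and 16.2%, SOX at 13.6 and 14.0% and KLF at 24.1 and 24.2%, so the differences for SOX and KLF were within counting error. Within 150 bases and with repeats kept, these words were instead more frequent at NIH3T3-only peaks. There ESRRB stood at 5.70% of NIH3T3-only and 4.86% of mESC-only peaks, the octamer at 4.15 and 3.43%, SOX at 4.16 and 3.26% and KLF at 7.60 and 5.35%. Without repeats at that distance ESRRB was at 5.75 and 7.02%, a difference of -1.27 points (-2.04 to -0.55), and the intervals for the octamer, SOX and KLF included 0. Within 500 bases TEAD (GGAATGT) was at 19.2% of NIH3T3-only and 16.0% of mESC-only peaks with repeats, and at 19.3 and 19.5% without, a difference within counting error. RUNX (TGTGGTT) was at 24.4 and 17.4% with repeats and at 23.9 and 21.8% without. The ETS word CCGGAAG was at 20.9% of mESC-only and 5.88% of NIH3T3-only peaks, and at 8.07 and 5.97% without repeats. In all, 11 words were counted.

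The AP-1 word did not lie at the summit itself. In NIH3T3-only peaks the AP-1 word occurred 0.28 times per kb in the first 100 bases from the summit, 1.34 times per kb at 200 to 300 bases, and 0.35 times per kb at 900 to 1000 bases, against 0.32 per kb in the genome. ESRRB in mESC-only peaks without repeats ran from 0.22 per kb at the summit to 0.43 per kb at 300 to 400 bases. The summits thus fell beside the words and seldom on them. Within 150 bases of the summit, AP-1 was accordingly at 10.1% of NIH3T3-only and 8.39% of mESC-only peaks, close to the genome's 8.83%. The profile was drawn after the result of the wider window was seen.

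**Figure D4:**
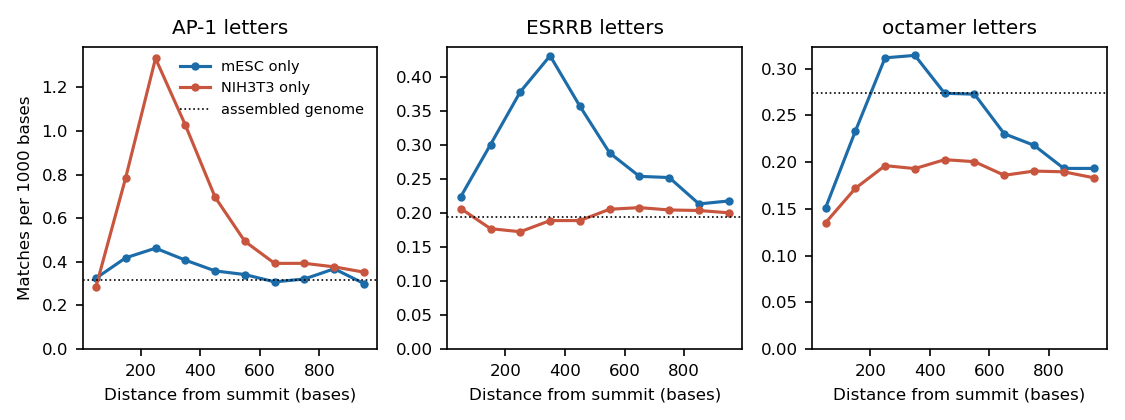
Matches per 1000 bases (y axis) against distance from the summit (x axis, bases, in bins of 100) for words of AP-1, ESRRB and the octamer in line-only peaks away from gene starts, without repeat peaks, with the genome's rate as a dotted line. AP-1 in NIH3T3-only peaks has its crest at 200 to 300 bases and is near the genome's rate at the summit and at 900 to 1000 bases.

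Examples of matches in high-ranked line-only peaks away from gene starts are printed as 31 bases of GRCm38, plus strand, with matched letters in capitals. Going down the q-value order without repeat peaks, those lacking the word or with the match in an annotated UTR were passed over. The examples were thus picked for having a match and show single sites only. The matches lay near Gsg1 (chr6:135252528-135252558, 131 bases from the summit), Lgals3 (chr14:47374550-47374580, 218 bases) and Als2cr12 (chr1:58652276-58652306, 458 bases) for AP-1. For mESC-only peaks they lay near Trappc6b (ESRRB, chr12:59039741-59039771, 455 bases, and octamer, chr12:59040093-59040123, 103 bases) and Zc3h11a (ESRRB, chr1:133669801-133669831, 384 bases).
Gsg1, AP-1: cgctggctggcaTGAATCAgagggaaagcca
Lgals3, AP-1: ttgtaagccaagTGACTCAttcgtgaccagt
Als2cr12, AP-1: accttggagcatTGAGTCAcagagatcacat
Trappc6b, ESRRB: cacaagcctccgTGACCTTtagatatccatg
Zc3h11a, ESRRB: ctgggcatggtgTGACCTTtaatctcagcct
Trappc6b, octamer: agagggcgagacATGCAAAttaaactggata

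The Gsg1 and Lgals3 peaks were NIH3T3-only at 40.4-fold and 37.3-fold, and the Als2cr12 peak at 24.8-fold. Trappc6b's peak was mESC-only at 24.1-fold and Zc3h11a's at 5.87-fold. The octamer is also part of snRNA promoters, and the Trappc6b peak lies beside the snRNA gene Gm22973.

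The highest-ranked line-only peaks away from gene starts were stronger and wider in NIH3T3 cells. In NIH3T3 cells they lay in Lncppara upstream of Ppara (chr15:85668359-85673336, fold 46.5, 4978 bp), in Arhgap23 (fold 43.7, 2315 bp) and in Dnm3os (fold 36.2, 8594 bp), the last a host of microRNAs active in mesenchyme. Gsg1 (fold 40.4, 4416 bp) and Lgals3, the gene of galectin-3 (fold 37.3, 3251 bp), followed. Lgals3 mRNA stood at 322.4 TPM in mESCs and 198.8 TPM in NIH3T3 cells, so the nearest gene did not have more mRNA in the line with the peak. In mESCs, after Trappc6b, they lay near Rps6ka1, a kinase of the ERK pathway (fold 7.58, 426 bp, 48.3 TPM in mESCs and 0 listed in NIH3T3 cells). Then came Sall1, a zinc finger factor of stem cells (fold 6.69, 852 bp, 105.6 TPM and 0 listed), Sfmbt2 (fold 11.4, 602 bp) and Adam23 (fold 8.47, 942 bp).

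Genes with a peak at their start in 1 line tended to have more mRNA in that line. Of 21938 protein-coding genes, 30.6% had an H3K27ac peak within 1 kb of the start in both lines, 1.68% in mESCs only, 14.1% in NIH3T3 cells only and 53.6% in neither. With a peak in mESCs only, 367 genes with RNA values had a median mRNA difference of 2.32 on the log2 scale (quartiles 1.00 and 4.0), and 74.9% were higher in mESCs by over 1 log2 unit. Of all genes, 13.5% were. With a peak in NIH3T3 cells only, 3083 genes had a median of -0.74 (quartiles -1.99 and 0.06), and 43.8% were higher in NIH3T3 cells by over 1 log2 unit, against 11.3% of all genes. Genes with a peak in both had a median of 0.18 over 6717 genes. Of the genes with a peak in mESCs only, 36.2% were listed at 0 TPM in NIH3T3 cells and 3.27% in mESCs. Of those with a peak in NIH3T3 cells only, 6.36% were at 0 in mESCs, so most of these genes had some mRNA in the line without the peak, with a median of 3.37 TPM there and 9.10 TPM in NIH3T3 cells.

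**Figure D5:**
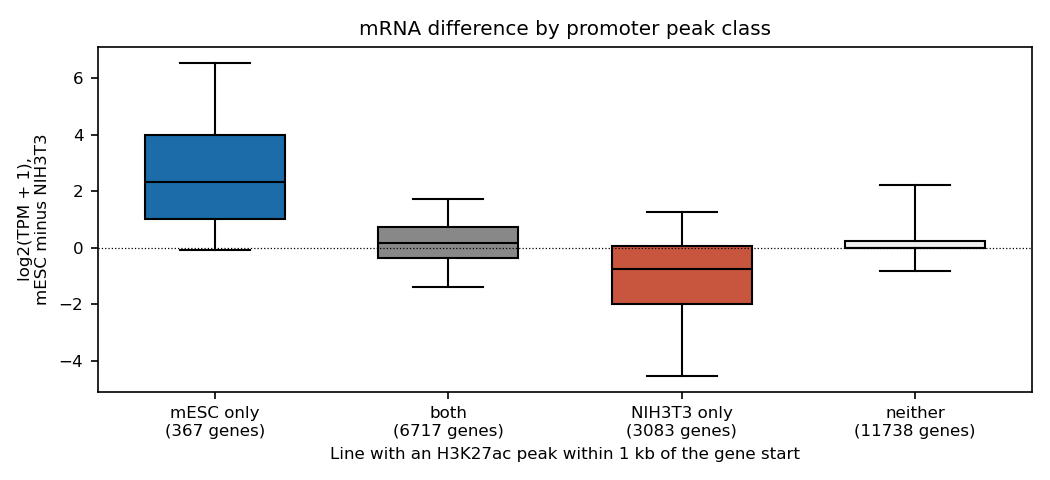
Difference in mRNA (y axis, log2(TPM + 1) in mESCs minus that in NIH3T3 cells) for protein-coding genes grouped by the line with an H3K27ac peak at the gene start (x axis), with the median and quartiles of each group. The median was 2.32 for genes with a peak in mESCs only, -0.74 for NIH3T3 cells only, 0.18 for both and 0 for neither.

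The leading peaks at gene starts held by 1 line fell on genes of both kinds. In mESCs these were 1700102P08Rik (fold 9.13), Ranbp17 (fold 9.08, 18.1 TPM and 0 listed in NIH3T3 cells), Renbp (fold 11.1, 56.0 and 7.44 TPM), Rpp25, an RNase P subunit (fold 9.24, 69.0 TPM and 0 listed), and Nhp2 (fold 7.52), a nucleolar protein gene with 183.0 TPM in mESCs and 157.7 in NIH3T3 cells. In NIH3T3 cells they were Parva, which links integrins to actin (fold 45.5, 1.31 TPM in mESCs and 58.2 in NIH3T3 cells), and Emp1, a membrane protein gene (fold 36.4, 50.8 and 463.4 TPM). Cnksr3 (fold 38.2, 5.50 and 7.46 TPM), Agbl3 (fold 35.3, 0.0699 and 2.16 TPM) and Gm49361 (fold 43.4) completed them, the last inside Lats2, a kinase gene of the Hippo pathway. Among the mESC peaks, that at Nhp2 had a summit window that was 75.4% repeat.

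Line-only peaks away from gene starts were also counted per nearest gene. The 382 genes with 10 or more NIH3T3-only peaks had a median mRNA difference of -1.19, and 52.4% were higher in NIH3T3 cells by over 1 log2 unit, against -0.06 and 24.0% for genes with 2 to 4 such peaks and 0 and 6.29% for genes with none. For mESC-only peaks, 319 genes with 5 to 9 had a median of 0.56, and 38.9% were higher in mESCs, against 10.9% for genes with none. The 37 genes with 10 or more mESC-only peaks had a median of 0.70, with 43.2% higher in mESCs. Without repeat peaks, 152 genes had 5 to 9 mESC-only peaks, with a median of 1.12 and 51.3% higher in mESCs. Only 15 genes then had 10 or more, with a lower median of 0.70 and 46.7% higher in mESCs. Longer distances to the next gene give a gene more peaks, and this was not adjusted for.

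NIH3T3-only peaks clustered along the chromosomes more than mESC-only peaks. Of NIH3T3-only peaks, 75.8% (75.3 to 76.4%) had another of their class within 10 kb, against 50.0% (49.1 to 51.0%) of mESC-only peaks. At equal numbers of peaks these shares were 57.5 and 50.5%, so the gap was smaller. Distances under 1 kb made up 35.2% of those between neighbouring NIH3T3-only peaks and 21.6% of those between mESC-only peaks. At equal numbers they made up 23.1 and 21.5%. Whether single acetylated stretches were called as several peaks was not tested. Joined at 10 kb, NIH3T3-only peaks formed 891 domains of at least 5 peaks and 107 of at least 10, and mESC-only peaks 83 and 2. At equal numbers the counts were 160 and 8 against 91 and 2. Without repeat peaks they were 793 and 88 for NIH3T3-only and 55 and 0 for mESC-only peaks.

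The NIH3T3-only domain with the most peaks held 29 in 64.6 kb at Socs3, which encodes a feedback inhibitor of LIF-type cytokine signalling (chr11:117931827-117996419), and the next 23 peaks at Tubd1 and Vmp1. Timp2, an inhibitor of matrix metalloproteinases, had 22 and Plec, the gene of the cytolinker plectin, 18. Col1a1, the gene of a type I collagen chain, lay in a domain of 17 peaks over 30.8 kb. The mESC-only domains were smaller, with 10 peaks each at Prss48 and at Nlrp12 with AU018091, and 8 each at Gm10767 and at Retreg1. Their median folds ran from 2.57 at Nlrp12 to 3.23 at Prss48, against 4.81 at Col1a1 to 8.24 at Tubd1.

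By nearest gene, NIH3T3-only peaks were most frequent at Myc, the growth regulator, with 51 peaks and mRNA of 12.5 TPM in mESCs and 25.4 in NIH3T3 cells. Ubash3b had 40 at levels below 1 TPM in both lines, and Hmga2, a chromatin protein gene of embryonic mesenchyme, had 38 at 12.9 and 244.0 TPM. Cited2 and Foxp1 had 30 each, a count that other genes not named here also reached. For mESC-only peaks, Zfp386 led with 25 (6.41 TPM in mESCs and 19.9 in NIH3T3 cells), then 2410141K09Rik with 22 (100.7 and 0.249 TPM), and Arhgap21 and Rab3c with 19 each. Pik3c3, a lipid kinase gene of autophagy, and Sall1 had 17 each, at 37.8 and 12 TPM and at 105.6 TPM and 0 listed. The gene with most line-only peaks was not always higher in that line, as Zfp386 and Rab3c (0 listed in mESCs and 3.54 TPM in NIH3T3 cells) show.

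By chromosome, the number of NIH3T3 peaks per mESC peak lay between 1.34 and 2.2 on the autosomes, with a median of 1.76. On the X chromosome it was 1.02, with 680 NIH3T3 and 666 mESC peaks. Of the mESC peaks on X, 328 lay in repeat windows, and without these the ratio on X was 1.96, within the autosomal range of 1.62 to 2.67. The Y chromosome had 5 mESC peaks and no NIH3T3 peak.

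Gene lists were then read by locus, the gene body and 10 kb on each side. Of all protein-coding genes, 43.8% had peaks of both lines at the locus, 4.85% of mESCs only, 15.6% of NIH3T3 cells only and 35.8% of neither. The lists were chosen with these lines in mind, so their counts are a description.

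Of the 20 pluripotency factors, 9 had peaks of mESCs only, 9 of both, 1 of NIH3T3 cells only and 1 of neither. Among those with mESC peaks only were Sox2, a partner of Oct4 (3 peaks, highest fold 2.84), Esrrb (8 peaks, 3.52) and Zfp42, the marker Rex1 (4 peaks, 3.77). Tdgf1, a co-receptor of Nodal (4 peaks, 4.75), Dppa5a (4 peaks, 2.56) and Fgf4 (3 peaks, 5.68) belonged to the same group. Pou5f1 had 3 mESC peaks of up to 3.2-fold and 2 NIH3T3 peaks of up to 10.7-fold within 10 kb of the gene, and none at its start in either line. Nanog likewise had 4 mESC peaks of up to 5.05-fold and 1 NIH3T3 peak at 13.2-fold, and no peak at its start. A peak in the locus may belong to a neighbouring gene. At gene starts, 7 of the 20 had an mESC peak only, among them Sox2, Zfp42, Tfcp2l1, Sall4 and Lin28a, and 3 had peaks of both: Klf4, Klf5 and Tbx3. These 3 had mRNA in NIH3T3 cells as well, at 26.3, 14.2 and 10.1 TPM. Klf2 had NIH3T3 peaks at its start (fold 14.4) and none of mESCs there, with 251.0 TPM in mESCs and 3.48 in NIH3T3 cells. The highest mESC peak of the 20 loci, at Klf4, had a fold of 5.84, beside a median of 3.98 and an upper quartile of 5.43 over the whole mESC list. Utf1, a chromatin-associated factor, had 192.8 TPM in mESCs and no mESC peak.

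Of the 20 fibroblast matrix genes, 16 had peaks of NIH3T3 cells only and 3 of both, with 111 NIH3T3 and 5 mESC peaks over the 20 loci. Col1a1 had 17 NIH3T3 peaks of up to 16.9-fold, with 0.203 TPM in mESCs and 900.9 in NIH3T3 cells. Mmp2, a gelatinase, Fbln2, Lox, which cross-links collagen, and Col6a1 had 8 each. Fn1, the fibronectin gene, carried 2 mESC peaks of up to 3.07-fold and 3 NIH3T3 peaks of up to 22.7-fold, at 75.7 and 406.2 TPM. Sparc also had peaks of both, and is expressed in both, at 187.2 and 765.8 TPM. Lum had 1 mESC peak and none of NIH3T3 cells, against its mRNA, and that peak lay in a repeat window.

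Of the 12 mesenchymal transcription factors, 9 had peaks of NIH3T3 cells only and 3, Zeb1, Runx2 and Tcf4, of both. Runx2, the osteoblast factor, had 22 NIH3T3 peaks and Runx1 15, at 13.8 and 11.5 TPM in NIH3T3 cells. Prrx1, a factor of limb mesenchyme, had the highest fold, 34.1, at its start, with 182.6 TPM in NIH3T3 cells and 0.0669 in mESCs. Snai1 and Twist2, which act in epithelial-mesenchymal transition, had 9 and 8 peaks. Osr2 had 2 peaks of up to 4.96-fold with 0.743 TPM in NIH3T3 cells, so the mark was present there at a low mRNA level.

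Of 10 AP-1 genes, 5 had peaks of both lines and 4, Fos, Fosl1, Fosl2 and Atf3, of NIH3T3 cells only. Batf3, listed at 0 TPM in both lines, had peaks of neither. Fosl1 stood at 0.287 TPM in mESCs and 106.1 in NIH3T3 cells, Fosl2 at 1.14 and 74.6, and Jun at 3.25 and 55.2. Fos and Fosb had peaks of 33.0-fold and 39.7-fold at their starts in NIH3T3 cells and little mRNA there, 3.27 and 0.486 TPM. Jund went the other way in mRNA, with 77.3 TPM in mESCs and 23.6 in NIH3T3 cells, and had peaks of both lines.

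Of 8 YAP and TEAD target genes with an entry (Ctgf and Cyr61 had none under these symbols), 5 had peaks of both lines, 2 of NIH3T3 cells only and 1 of neither. Axl, a receptor tyrosine kinase, had 15 NIH3T3 and 2 mESC peaks at 241.9 and 0.742 TPM, and Ankrd1 6 and 0. Of 12 contractile and adhesion genes, 7 had peaks of both and 4 of NIH3T3 cells only. Cald1, the caldesmon gene, had 19 NIH3T3 peaks and Tpm1, a tropomyosin gene, 12. Acta2, smooth muscle actin, had 2 NIH3T3 peaks of up to 7.89-fold at 179.4 TPM, and Myl9 none at 7.25 TPM.

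All 10 epithelial genes were higher in mESCs, and 5 of them (Epcam, Cldn3, Cldn7, Krt8 and Krt18) had no mESC peak in the locus. Over all genes, 15.6% had peaks of NIH3T3 cells only and 35.8% of neither line, so the share without an mESC peak was near the background. Epcam, an adhesion molecule, had 125.1 TPM in mESCs without a peak of either line, and Cdh1, E-cadherin, 111.6 TPM with 3 mESC peaks of up to 3.2-fold. Of 15 housekeeping genes, 13 had peaks of both lines and 2, Hprt and B2m, of NIH3T3 cells only. B2m, the light chain of class I MHC, had 31.0 TPM in mESCs and 497.3 in NIH3T3 cells. All 8 genes of H3K27ac enzymes and readers had peaks of both, and the mRNA of none differed by over 1 log2 unit. Crebbp, the gene of CBP, stood at 5.88 and 7.39 TPM and Ep300, that of p300, at 27.1 and 14.5. Of the 20 markers of other lineages, 17 had peaks of neither line.

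Super enhancers (SEs), long clusters of enhancers at genes of cell identity, were taken from the 231 regions that the study lists for mESCs. Of these, 200 (86.6%, 81.5 to 90.7%) overlapped an mESC H3K27ac peak and 63 (27.3%, 21.6 to 33.5%) a NIH3T3 peak. Peaks of mESCs only were at 142 of them (61.5%), of both at 58, of NIH3T3 cells only at 5 and of neither at 26. The SEs held 475 mESC-only peaks, 4.67% of that class, and 61 NIH3T3-only peaks, 0.237%. The mESC-only peaks in SEs had a median fold of 2.96, below the 3.61 of the whole class. The study had also cloned regions with NIH3T3 peaks for reporter assays, chosen on these libraries, so that their peaks are no independent evidence. Of the 8 cloned for Ctr9 in NIH3T3 cells only, 7 had a NIH3T3 H3K27ac peak (highest folds 26.0 to 47.0) and 2 an mESC peak. Of the 8 without Ctr9, all had a NIH3T3 peak (13.8 to 25.8) and none an mESC peak. The Lncppara peak upstream of Ppara is among the first group.

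Ctr9 lay at shared NIH3T3 peaks more often than at NIH3T3-only peaks, with 27.8% (26.9 to 28.8%) against 7.68% (7.36 to 8.01%). In mESCs the shares were closer, 25.5% (24.6 to 26.4%) of shared and 21.1% (20.3 to 21.9%) of mESC-only peaks, and without repeat peaks the difference between them turned to -2.95 points (-4.39 to -1.52). Within mESCs, Ctr9 was most frequent at shared peaks away from gene starts, 37.2% (35.0 to 39.3%) against 22.3% at gene starts. NELFA, a subunit of the complex that pauses RNAPII, was at 18.3% of shared and 2.02% of mESC-only peaks. Ser5p, the form of RNAPII near starts, was at 21.4 and 9.37%. These pooled shares mix class with position. At gene starts alone, Ser5p was at 20.8% (19.9 to 21.8%) of shared and 18.9% (15.8 to 22.3%) of mESC-only peaks, and NELFA at 20.2 and 8.93%. Away from gene starts, Ser5p was at 23.6 and 8.79%, and NELFA at 11.3 and 1.60%. Without repeat peaks, Ctr9 away from gene starts was at 37.4% (35.2 to 39.6%) of shared and 28.9% (27.7 to 30.1%) of mESC-only peaks. At gene starts it was then at 22.3% (21.4 to 23.3%) and 24.2% (20.7 to 28.0%). The pooled Ctr9 difference without repeat peaks thus had the opposite sign to that away from gene starts.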

How the data were processed

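Peaks were compared between 1 H3K27ac ChIP-seq library of mESCs and 1 of NIH3T3 cells. Per the submitters' processing notes and the paper's methods, the authors aligned reads to mm10 with Bowtie2 2.3.5.1 at default parameters, removed blacklisted regions and called peaks per library with MACS2 2.2.6 at a q-value of 0.01. A filter on reads with several places in the genome is not given in the sources used here. The deposited lists give each peak's fold enrichment (a ratio to the background nearby) and, as −log10, its q-value, from at least 2.30 in mESCs and 2.02 in NIH3T3 cells. For RNA, the authors ran kallisto 0.46.1 and deposited, for each transcript, an estimated count and its TPM. The estimated counts summed to 26400407 in mESCs and 28849497 in NIH3T3 cells, and each gene was given the TPM of its highest transcript, with values for 21905 of 21938 protein-coding genes of GENCODE M21.

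Computed here were overlaps of at least 1 bp, distances from summits to gene starts, domains joined at 10 kb, and letters in windows of 150 (alternatively 500) bases on each side of the summit, in lower-case (repeat) and upper-case bases of GRCm38. The genome's values came from evenly spaced windows of the same length. A pseudocount of 1 was added to TPM. Peaks were nearest to the protein-coding gene with the closest start. The code was tested on simulated data. Tools were Python 3.11.15, pandas 2.3.3, NumPy 2.4.6, SciPy 1.17.1, pysam 0.24.0 and Matplotlib 3.10.9.

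Genes named are the members of 11 lists, the nearest genes of the 5 strongest peaks by q-value of each class and of the 5 shared pairs with the highest lower value, and, per line, the 5 genes with the most line-only peaks and those nearest to the 5 largest domains. A few of these genes are not reported here. Peaks at gene starts, Col1a1's domain and the genes beside printed matches were named in addition after their values were seen. The members and lists were chosen with earlier results of these data known. Alternatives changed the q-value cutoff (−log10 q of at least 5), the number of peaks, the overlap rule, the gene start window and set, the joining distance, the pseudocount (0.1), a TPM filter and the motif window, and leaving out repeat peaks was added after seeing the data. The RNAPII Ser2p list and the 3 input libraries were not used here.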

Additional observations from a re-analysis of the deposited data

Results flagged for a closer look

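Peaks also lay on sequences outside the assembled chromosomes, which no comparison used: 112 in mESCs and 26 in NIH3T3 cells. They were noted because they are signal in data that the report left out, and no library without the antibody has a list to set beside them.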

How the results depend on the processing

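For 23 results, 85 alternative values were computed, of which 40 stayed within the interval of the reported value, 42 lay outside it and 3 changed sign. With equal numbers of peaks, shared peaks were 43.6 and 39.6% (mESC and NIH3T3, here and below). Shared peaks then exceeded line-only peaks in median fold by 1.29 and 7.10 and in NIH3T3 median width by 310 bp, and at gene starts by 71.5 and 51.5 points. NIH3T3-only peaks with a neighbour were 57.5%, mRNA medians were 1.56 (peak in mESCs only) and -0.86 (in NIH3T3 cells only), SEs with a NIH3T3 peak 19.9%, and the AP-1 difference near summits 0.54 points. Without repeat peaks, chosen after seeing the data, sharing was 59.1 and 25.5%, the mESC differences were 119 bp, 1.38 in fold and 69.9 points at gene starts, and neighbours were at 54.5 and 74.3%. The pooled Ctr9 difference in mESCs turned to -2.95 points and that of ESRRB to -1.27, with AP-1 at 0.45 and ETS at -0.38. With 500 bases around summits, AP-1 was 31.4, ESRRB -4.24 and ETS -15.0 points. The causes were not tested.

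At −log10 q of at least 5, sharing was 48.3 and 26.3% and the NIH3T3 width difference 465 bp. With the summit inside the other peak, sharing was 46.2 and 23.1% and the NIH3T3 fold difference 9.40, and within 1 kb sharing was 50.0 and 33.6%. Gene starts of 500 bp gave 65.4 and 52.3 points, and all coding transcript starts 78.7 and 59.1. Joining at 5 kb gave 44.8 and 70.5%. A pseudocount of 0.1 gave mRNA medians of 3.94, -1.02 and 0.20 (both), and genes of at least 1 TPM gave 2.69 and -0.91. Unknown ChIP depth limits all comparisons of list length, width and fold between the lines.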
